A study of Mus musculus with 16 samples.

Results

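The fibroblast growth factor (FGF) family of the mouse was examined as 30 genes, which were taken by family membership. No measured value enters that rule, although the family was picked with earlier results of these data known. They were 15 secreted ligands, 3 endocrine ligands, 4 intracellular FGF homologous factors, 4 receptors and 4 Sprouty inhibitors. Of these, 29 were located among the 22350 protein-coding genes of the GENCODE annotation of NCBIM37 (mm9). Spry3 was not located under its symbol and is not analysed here. A gene was counted as occupied when a peak of a ChIP-seq list overlapped it or lay within 5 kb of it.

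FGF ligands bind receptor tyrosine kinases at the cell surface and signal through Ras and the MAP kinases. In mouse embryonic stem cells (ESC) the ligand Fgf4 is made by the cells themselves and drives them toward lineage commitment, and Fgf5 is a classical marker of the epiblast that follows. Sprouty proteins are induced by the same signal and restrain it, the endocrine ligands act at a distance with the Klotho co-receptors, and the intracellular factors are not secreted and bind voltage-gated sodium channels. Polycomb repressive complex 2 (PRC2) trimethylates lysine 27 of histone H3 (H3K27me3), a mark of repressed developmental genes, and Jarid2 is a cofactor of PRC2 that is itself methylated at lysine K116.

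Chromatin of E14 ESC, a wild-type mouse line grown in serum with LIF, was pulled down with antibodies to Jarid2 as a whole or to its form dimethylated at K116 (Jarid2-K116me2), with 1 sample for each antibody and thus no replicate error. H3K27me3 was measured in 3 other lines, all of which lack the endogenous gene: Jarid2 -/- cells (KO), the same cells rescued with a Jarid2 BAC (WT), and the same cells rescued with a BAC carrying the K116A mutant (K116A). Each line was taken as ESC in serum and LIF and as embryoid bodies (EB), formed in hanging drops and kept for 8 days without LIF, with 2 replicates in each of the 6 groups. The BACs were integrated with a transposon, WT is therefore a rescue and not the parental line, and whether a line is 1 clone is not given in the sources used here. Jarid2 itself was not mapped in these 3 lines, and H3K27me3 was not mapped in E14 cells.

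The Jarid2 list held 4992 peaks and the Jarid2-K116me2 list 4502. The H3K27me3 lists held 1478 to 9836 peaks in ESC and 6811 to 14125 in EB, and covered 2.3 Mb in replicate 1 of ESC WT and 55.0 Mb in replicate 2 of EB KO. Replicate 2 had more peaks than replicate 1 in 6 of 6 groups. Numbers of reads are not in the peak lists and are not used here, so the number of peaks was not set against depth, and a region without a peak is one where none was called at the depth of that library. Because replicate 1 of ESC WT stands apart, each result that uses it is also given without it where this changes a call. No expression was measured, so the label of the cells could be set against chromatin alone. Of 9 genes active in ESC, 1 (Esrrb) had peaks of both antibodies, and of 10 genes that PRC2 is known to occupy in ESC, 10 had them.

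Jarid2 and PRC2 are known to gather at CpG islands, so the stretches before the genes are shown with their CpG. They are the 300 bases before the 5′ end of 4 members on NCBIM37, each read 5′ to 3′ on the strand of the gene, with CpG dinucleotides in capitals. Fgf5 stands for occupied ligands, and Fgf4 and Spry2 for members without a peak. Fgf22 stands for a member with H3K27me3 within 5 kb of its 5′ end in both EB KO libraries. The other EB lines had none there.
Fgf5 (chr5:98682903-98683202, plus strand): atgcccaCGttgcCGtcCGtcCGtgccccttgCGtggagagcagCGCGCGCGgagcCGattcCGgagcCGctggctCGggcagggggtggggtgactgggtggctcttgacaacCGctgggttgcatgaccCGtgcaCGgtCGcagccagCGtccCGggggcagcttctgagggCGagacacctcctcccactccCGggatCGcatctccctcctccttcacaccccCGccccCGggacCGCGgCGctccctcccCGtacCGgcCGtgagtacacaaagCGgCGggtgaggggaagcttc
Fgf4 (chr7:152046991-152047290, plus strand): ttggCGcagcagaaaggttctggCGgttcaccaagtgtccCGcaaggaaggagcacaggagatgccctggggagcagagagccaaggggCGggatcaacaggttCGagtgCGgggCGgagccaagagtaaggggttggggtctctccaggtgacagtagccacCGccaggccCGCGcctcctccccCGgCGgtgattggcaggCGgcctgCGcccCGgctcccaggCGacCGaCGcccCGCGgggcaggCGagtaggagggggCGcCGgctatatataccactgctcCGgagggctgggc
Spry2 (chr14:106296037-106296336, minus strand): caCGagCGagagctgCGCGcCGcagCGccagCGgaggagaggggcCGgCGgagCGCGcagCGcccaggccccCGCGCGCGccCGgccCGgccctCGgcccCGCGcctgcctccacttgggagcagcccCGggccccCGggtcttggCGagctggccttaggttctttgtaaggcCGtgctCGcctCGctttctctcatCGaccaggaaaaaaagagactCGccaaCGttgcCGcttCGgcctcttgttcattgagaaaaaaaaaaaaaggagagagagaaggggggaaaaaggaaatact
Fgf22 (chr10:79217521-79217820, plus strand): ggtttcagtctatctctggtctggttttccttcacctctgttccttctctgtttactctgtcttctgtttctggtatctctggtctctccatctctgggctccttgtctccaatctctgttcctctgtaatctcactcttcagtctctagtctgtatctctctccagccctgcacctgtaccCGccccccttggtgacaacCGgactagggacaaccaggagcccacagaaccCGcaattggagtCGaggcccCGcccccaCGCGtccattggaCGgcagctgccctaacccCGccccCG

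The stretch of Fgf5 holds 32 CpG and lies with all 300 bases inside the peaks of both antibodies. The stretches of Fgf4 and Spry2 hold 24 and 32 CpG and no base of a peak. As many CpG as before Spry2 are found before 8.1% of all protein-coding genes, and as many as before Fgf4 before 18.2%. Before Fgf22 there are 10 CpG, a count reached before 49.7% of all genes. The H3K27me3 peaks near Fgf22 all end before this stretch begins, so the stretch itself holds no base of them. A dense CpG stretch was therefore present before members with and without Jarid2. For each member, CpG were then counted in the 300 bases before the start site nearest its highest Jarid2 peak, or before its 5′ end where it had none. The 17 members with peaks of both antibodies had a median of 17.0 CpG (range 2 to 45). The 9 members with no peak had a median of 10.0 (range 5 to 32), so the ranges overlap. Over all 22350 genes the median before the 5′ end was 9.0. The sites of occupied members were picked by their Jarid2 peak, so these medians do not compare like sites.

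Most of the family carried Jarid2 in ESC. A Jarid2 peak was found at 20 of the 29 located members and a Jarid2-K116me2 peak at 17, and all 17 had both. Over all protein-coding genes the shares were 18.1% for Jarid2, 16.0% for Jarid2-K116me2 and 15.8% for both. The counts are a description, as 1 sample for each antibody allows no test. By role, both antibodies gave peaks at 9 of 15 secreted ligands, 1 of 3 endocrine ligands, 4 of 4 intracellular factors, 3 of 4 receptors and 0 of 3 Sprouty genes. The members held 26 Jarid2 peaks and 22 Jarid2-K116me2 peaks. These covered a start site of their own member in 19 of 26 and 18 of 22 cases, and for all of them the nearest start site of any protein-coding gene belonged to that member.

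**Figure D1:**
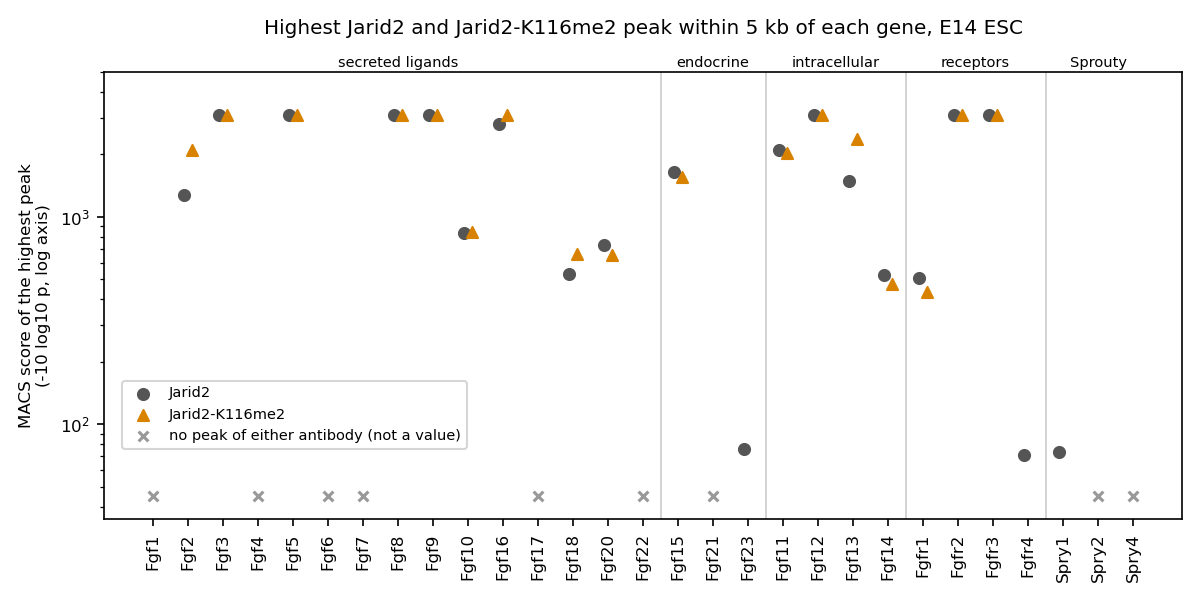
MACS score (negative log10 of p multiplied by 10, log axis) of the highest Jarid2 peak (circles) and Jarid2-K116me2 peak (triangles) within 5 kb of each of the 29 located genes in E14 ESC, 1 sample for each antibody, grouped by role. Both antibodies reached 3100 at 7 genes, Fgf23, Fgfr4 and Spry1 had a low Jarid2 score alone, and 9 genes (crosses, drawn below the scale and not values) had no peak.

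Among the secreted ligands, 4 reached a score of 3100 with both antibodies. The score is that of MACS, the negative log10 of the p-value of a peak multiplied by 10, and it piles up at 3100, so that members at this value cannot be ranked. Fgf3, a ligand of inner ear and tail development, had its Jarid2 peak at chr7:152022963-152026623, over its start site. Fgf5 had its Jarid2 peak at chr5:98681853-98685802, and Fgf9, which acts in gonad and lung, had the widest peak of the family at chr14:58687945-58696913, 8969 bp wide. Fgf8, the organizer ligand of gastrulation, midbrain and limb, carried 3 Jarid2 peaks that ran one after another along the gene. The middle one, at chr19:45813128-45817470 with a score of 3100, covers the start site, and the others, with scores of 600.5 and 355.3, lie over the 3′ part of the gene and before its 5′ end. Each of the 3 had its own Jarid2-K116me2 peak, with scores of 415.6, 3100 and 305.3.

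The other 5 occupied secreted ligands scored lower. Fgf16, a ligand of heart development, had a Jarid2 score of 2815 at chrX:102958170-102961820 and 3100 for Jarid2-K116me2. Fgf2, basic FGF, had 1280.2 and 2108 at chr3:37246525-37248898. Fgf10, the ligand of limb and lung budding, had 839.0 and 848.4 at chr13:119501685-119505064, Fgf20 had 728.2 and 654.5 at chr8:41371033-41372866, and Fgf18, which acts in bone, had 529.7 and 664.4 at chr11:33046419-33048053. Fgf18 also had a Jarid2 peak inside the gene, 23695 bp from its start site with a score of 150.9, which no Jarid2-K116me2 peak overlapped. The 6 secreted ligands without any peak were Fgf1, Fgf4, Fgf6, Fgf7, Fgf17 and Fgf22.

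The Fgf3, Fgf4 and Fgf15 genes lie in a row on chromosome 7, all on the plus strand, and differed within this short stretch. Fgf15, the gut hormone that restrains bile acid synthesis, had a Jarid2 peak with a score of 1646 at chr7:152081235-152084378 and a Jarid2-K116me2 score of 1551. Fgf4 lies between them, 23303 bp from the 5′ end of Fgf3 and 35146 bp from that of Fgf15, and had no peak of either antibody. Of the other endocrine ligands, Fgf21, the fasting hormone of the liver, had no peak. Fgf23, the phosphate hormone of bone, had only a Jarid2 peak with a score of 75.9, 7489 bp from its start site. The lowest score that the Jarid2 list holds is 62.1, whereas the Jarid2-K116me2 list starts at 91.9.

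All 4 intracellular factors were occupied by both antibodies. Fgf12 scored 3100 with both at chr16:28443551-28448324, and Fgf11 had 2108 for Jarid2 and 2024 for Jarid2-K116me2 at chr11:69613197-69618728. Fgf14 had 526.1 and 474.2 at chr14:124590814-124592769, over the start site of a shorter transcript, 484225 bp from the 5′ end of the annotated gene. Fgf13 had a pair of occupied start sites. At the distal one (chrX:56819079-56821947) the scores were 1482 for Jarid2 and 2380.1 for Jarid2-K116me2, and at the internal one (chrX:56386801-56387815) they were 198.8 and 658.6.

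Fgfr2 and Fgfr3, receptor genes for epithelial and skeletal growth, scored 3100 with both antibodies. At Fgfr2 a single Jarid2 peak of 6144 bp (chr7:137404461-137410604) stood opposite 2 Jarid2-K116me2 peaks with scores of 3100 and 184.6. Fgfr3 had its peak at chr5:34063423-34067593. Fgfr1, the receptor most used by ESC, carried 3 Jarid2 peaks with scores of 507.2, 389.6 and 77.0, of which the first 2 had a Jarid2-K116me2 counterpart. The highest, at chr8:26628428-26631241, lies over an alternative start site. Fgfr4, the receptor of liver for Fgf15, had only a Jarid2 peak with a score of 70.6.

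Of the 3 located Sprouty genes, 1 had a Jarid2 peak and 0 had both antibodies, beside 18.1% and 15.8% of all protein-coding genes. So few genes do not set the group apart from these shares. Spry1 had a Jarid2 peak with a score of 73.7, while Spry2 and Spry4 had no peak of either antibody. A stricter Jarid2 score of at least 200 removed the peaks of Fgf23, Fgfr4 and Spry1 and left the same 17 members that had both antibodies.

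All 22 Jarid2-K116me2 peaks overlapped a Jarid2 peak, and 5 of the 26 Jarid2 peaks had no counterpart. Over the whole lists, the paper reports Jarid2 at nearly all Jarid2-K116me2 regions, and the methylated form at most Jarid2 regions. The counts at the members are therefore not read as a trait of the family. In 20 places 1 Jarid2 peak faced 1 Jarid2-K116me2 peak, and the Jarid2 peak was the wider one in 18 of them, with a median ratio of 1.18 beside 1.22 over all 3508 such pairs. Among the 13 pairs under the score of 3100, the Jarid2-K116me2 score was the higher one in 6, beside 55.1% of all such pairs. The largest log2 ratios of Jarid2-K116me2 to Jarid2 score were 1.73 and 0.68 at the internal and distal start sites of Fgf13 and 0.72 at Fgf2. The lowest was -0.53, at the 3′ peak of Fgf8. Fgf13 and Fgf16 lie on the X chromosome, where the Jarid2-K116me2 score was the higher one in 75.0% of all pairs, against 54.6% on autosomes. The part of the chromosome in the Fgf13 values was not tested.

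The wider FGF pathway was examined with 39 genes for co-receptors, inhibitors, transducers and targets. Jarid2 occupied 11 of them and Jarid2-K116me2 9, and 9 had both. Over all protein-coding genes the shares were 18.1%, 16.0% and 15.8%. The roles hold few genes each, so their counts are a list and do not set a role apart from these shares. Both antibodies were found at 4 of 8 co-receptors and binding proteins, which were Fgfrl1, Fgfbp3, the Fgf23 co-receptor Kl (scores 1945 and 2547) and the adhesion protein gene Flrt2 (3100 and 3100). They were found at 2 of 8 further inhibitors, the MAP kinase phosphatases Dusp4 (2799 and 3100) and Dusp5 (191.1 and 211.2). Of 16 transducers, 2 had both, the exchange factor Sos2 (694.0 and 768.0) and the adaptor Gab1 (1955 and 2267). Of 7 target genes, Fos had both (947.2 and 655.9), and Egr1 and Myc had Jarid2 peaks only, with scores of 134.0 and 177.7.

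H3K27me3 was then measured at each member as the length covered by H3K27me3 peaks in the 10 kb window around the 5′ end of the gene. Peaks in both replicates were found at 9 members in ESC KO, 4 in ESC WT and 11 in ESC K116A, beside 9.87%, 3.18% and 11.8% of all protein-coding genes. In EB they were found at 15 members in KO, 11 in WT and 13 in K116A, beside 21.9%, 14.4% and 16.8% of all genes. The low count in ESC WT rests on its replicate 1, since replicate 2 alone listed peaks at 17 members. For ESC KO, replicate 2 alone listed peaks at 16. Fgf8, Fgf9, Fgf11 and Fgfr3 had peaks in all 12 libraries.

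**Figure D2:**
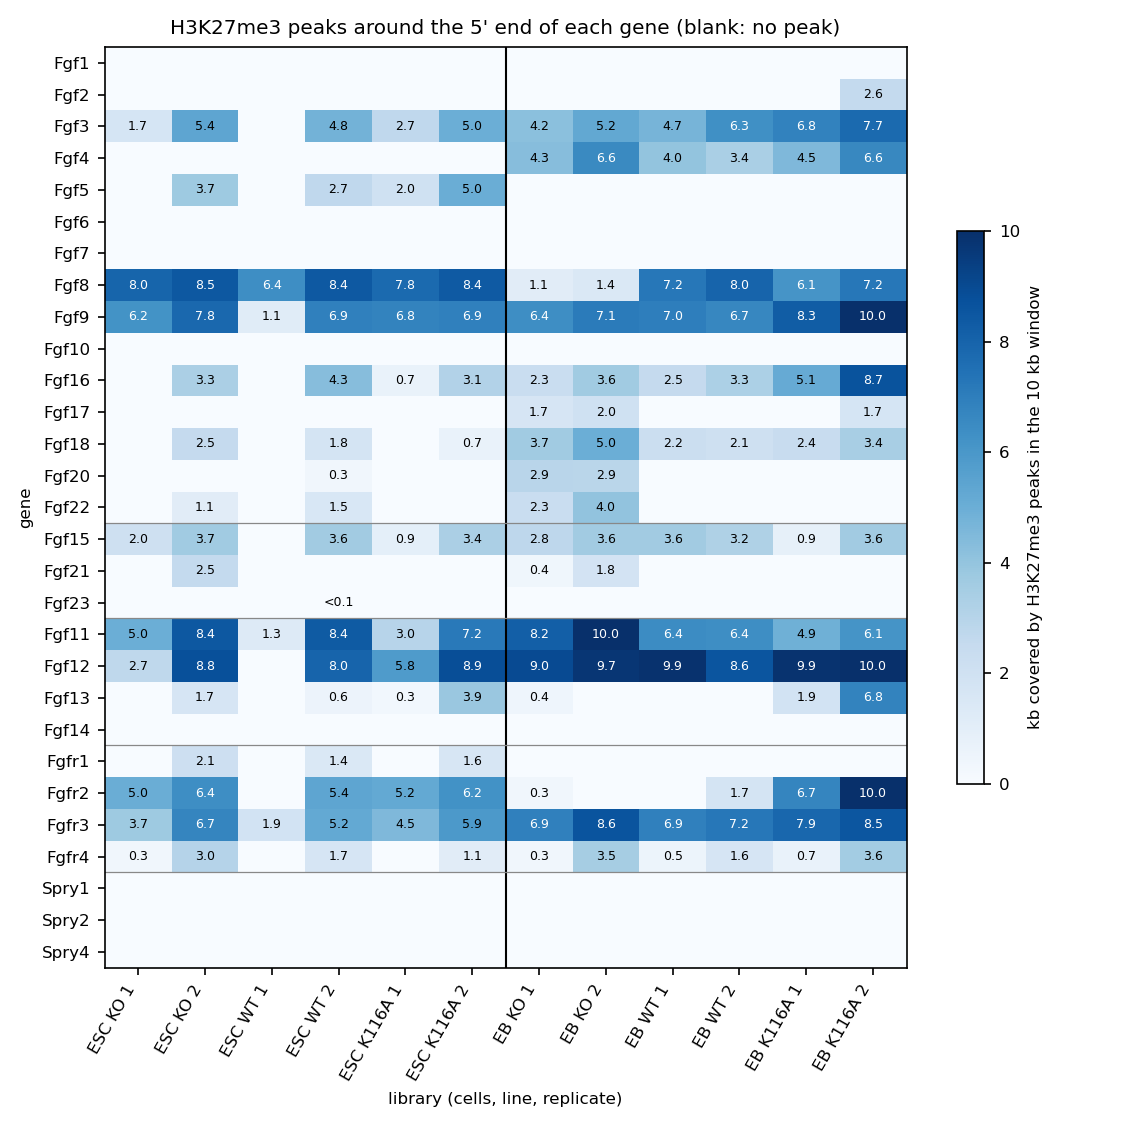
Length in kb covered by H3K27me3 peaks in the 10 kb window around the 5′ end of each of the 29 located genes (rows, grouped by role) in the 12 libraries (columns, line and replicate, ESC left and EB right), blank where no peak was listed. Fgf4 is blank in 6 of 6 ESC libraries and filled in 6 of 6 EB libraries, Fgf5 is blank in all EB libraries, Fgf8 is pale in the EB KO libraries, and the Sprouty genes are blank throughout.

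Several occupied members have their Jarid2 peak far from the annotated 5′ end, and for these the window shows other chromatin. The distance is 36134 bp for Fgf2, 44908 bp for Fgf10, 21378 bp for Fgf20 and 484225 bp for Fgf14. In the window around the start site next to the Jarid2 peak, Fgf2 had 0 to 6.05 kb of H3K27me3 in ESC and 4.09 to 8.97 kb in EB, and Fgf20 had 0.33 to 10.0 kb in ESC and 5.46 to 10.0 kb in EB. Fgf14 had up to 3.97 kb in ESC and up to 3.65 kb in EB there. Fgf10 had peaks there in 4 of the ESC libraries, with 2.28 kb at most, and in no EB library. Fgf1, Fgf6, Fgf7, Spry1, Spry2 and Spry4 had no H3K27me3 peak within 5 kb of the gene in any of the 12 libraries.

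Fgf9, Fgf11, Fgf12 and Fgfr3 carried the widest H3K27me3 next to Fgf8, and kept it in EB of all lines. Fgf9 had 6.19 and 7.84 kb in ESC KO, 1.13 and 6.89 kb in ESC WT and 6.76 and 6.90 kb in ESC K116A. In EB it had 6.40 and 7.09 kb in KO, 6.97 and 6.68 kb in WT and 8.26 and 10.0 kb in K116A. The low value is that of ESC WT replicate 1, and the other libraries overlap. Fgf12 had 2.70 and 8.75 kb in ESC KO, 0 and 7.99 kb in ESC WT and 5.82 and 8.85 kb in ESC K116A, against 8.59 to 10.0 kb in the 6 EB libraries. Fgf11 had 1.31 to 8.44 kb in ESC and 4.92 to 10.0 kb in EB, and Fgfr3 had 1.86 to 6.72 kb in ESC and 6.88 to 8.62 kb in EB, so that the EB values of Fgfr3 lie above all its ESC values. In all 3 ESC lines replicate 1 was below replicate 2 for these 4 genes.

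Narrower domains were found at 6 more members. Fgf3 had 0 to 5.37 kb in ESC and 4.18 to 7.75 kb in EB, and Fgf15 had 0 to 3.65 kb in ESC and 0.85 to 3.63 kb in EB, both with the 0 in ESC WT replicate 1. Fgf16 had 0 to 4.32 kb in ESC, 2.33 to 3.65 kb in EB of KO and WT, and 5.14 and 8.66 kb in EB K116A. Fgf18 had 0 to 2.53 kb in ESC and 2.10 to 4.99 kb in EB. Fgfr4, with its low Jarid2 score, had 0 to 3.02 kb in ESC and 0.34 to 3.59 kb in EB. Fgf13 had 0 to 3.86 kb in ESC, 1.85 and 6.77 kb in EB K116A, and 0.44 kb in 1 library and 0 in 3 of the other EB libraries. Fgf3, Fgf15, Fgfr4, Fgf11, Fgf12 and Fgfr3 were called in no comparison under any setting. Fgf9, Fgf13, Fgf16 and Fgf18 were called only under other settings. These were, for Fgf9, leaving out ESC WT replicate 2, and for Fgf13 quantile normalization (EB K116A against EB WT, adjusted p = 0.0433, limma). For Fgf16 it was the block given with the other settings, and for Fgf18 that block and leaving out ESC KO replicate 2 (EB against ESC in KO, adjusted p = 0.0276, limma). Fgf21, which had no Jarid2 peak, had 2.55 kb in ESC KO replicate 2, 0.38 and 1.83 kb in EB KO and 0 elsewhere. These peaks all cover a start site of another gene, Fut1, 2116 bp from the 5′ end of Fgf21, and none reaches that 5′ end. Whether they concern Fgf21 or Fut1 cannot be told apart. Fgf23 had 0.022 kb at the edge of its window in ESC WT replicate 2 only. Its low-scoring Jarid2 peak lies 7489 bp from its start site, outside this window. Over the gene with 5 kb on each side, Fgf23 had 0 to 2.58 kb in ESC and 0.54 to 2.77 kb in EB.

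The groups were compared with limma on the covered length in kb, fitted on all 6741 protein-coding genes with a peak in the window in at least 2 of 12 libraries, with Benjamini-Hochberg adjustment and a threshold of 0.05. Of the 29 located members, 19 passed this filter, and the others could not be tested. Values are differences in kb ± SE, with 2 libraries in each group, and the comparisons of EB with ESC and of the lines share libraries. The SE of a gene pools the spread within all 6 groups and is moderated across genes. It is therefore not the spread of the compared groups alone. Groups in which neither library had a peak add a spread of 0 and so lower the SE. This holds for several groups of Fgf4, Fgf17 and Fgf20, whose p-values are to be read with that limit.

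Fgf8 lost most of its H3K27me3 in EB of the KO line. In ESC the window held 7.96 and 8.45 kb in KO, 6.40 and 8.40 kb in WT and 7.76 and 8.37 kb in K116A. In EB it held 1.12 and 1.41 kb in KO, against 7.24 and 7.97 kb in WT and 6.13 and 7.23 kb in K116A. The EB KO libraries thus lie below all 10 others, with no overlap. EB KO was lower than ESC KO by -6.94 ± 1.19 kb (adjusted p = 0.0036, limma) and lower than EB WT by -6.34 ± 1.19 kb (adjusted p = 0.00682, limma). The change from ESC to EB was 0.20 ± 1.19 kb in WT, and the difference between the KO and WT changes was -7.14 ± 1.69 kb (adjusted p = 0.0395, limma). That difference also passed without ESC WT replicate 1 (adjusted p = 0.0313) or replicate 2 (adjusted p = 0.00625), but not without any 1 of the other 10 libraries (adjusted p = 0.059 to 0.244). The difference between EB KO and EB WT did not pass without EB KO replicate 2 (adjusted p = 0.0893) or EB WT replicate 2 (adjusted p = 0.064). Other settings that ended Fgf8 calls were no filter on low genes (adjusted p = 0.0605 against ESC KO, 0.122 against EB WT and 0.611 for the difference between changes), the gene with 5 kb on each side (0.0593 against EB WT and 0.19) and log2 of the mean score plus 1 (0.0557 against EB WT and 0.147). K116A and WT differed in EB by -0.93 ± 1.19 kb (adjusted p = 1, limma). What remained in EB KO covered 25.8% and 32.6% of the main Jarid2 peak of E14 cells, which was covered to 80.4% or more in the 10 other libraries.

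Fgf4 changed the other way. No ESC library of any line had a peak in its window. In EB the window held 4.32 and 6.56 kb in KO, 4.02 and 3.39 kb in WT and 4.50 and 6.62 kb in K116A, so that all 6 EB libraries lie above all 6 ESC libraries. Fgf4 thus passed the filter through the EB libraries alone, in which it is high, and was then tested between EB and ESC. EB exceeded ESC by 5.44 ± 1.04 kb in KO (adjusted p = 0.00606, limma) and by 5.56 ± 1.04 kb in K116A (adjusted p = 0.0352, limma). In WT the difference was 3.71 ± 1.04 kb and did not pass (adjusted p = 0.485, limma), and neither the KO nor the K116A change differed from that of WT (1.73 ± 1.48 kb, adjusted p = 0.744, and 1.85 ± 1.48 kb, adjusted p = 1, limma). The KO call also passed with no filter on low genes, but was lost without EB KO replicate 2 (adjusted p = 0.0839, limma). The K116A call was lost without 7 of the 12 libraries, namely EB K116A replicate 2 and either replicate of ESC K116A, ESC WT or EB WT, with adjusted p values of 0.0588 to 0.249, and with no filter on low genes (adjusted p = 0.141). The H3K27me3 of Fgf4 in EB thus stands at a gene where Jarid2 had no peak in E14 ESC, between Fgf3 and Fgf15, which had peaks in 5 of 6 ESC and in all EB libraries.

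**Figure D3:**
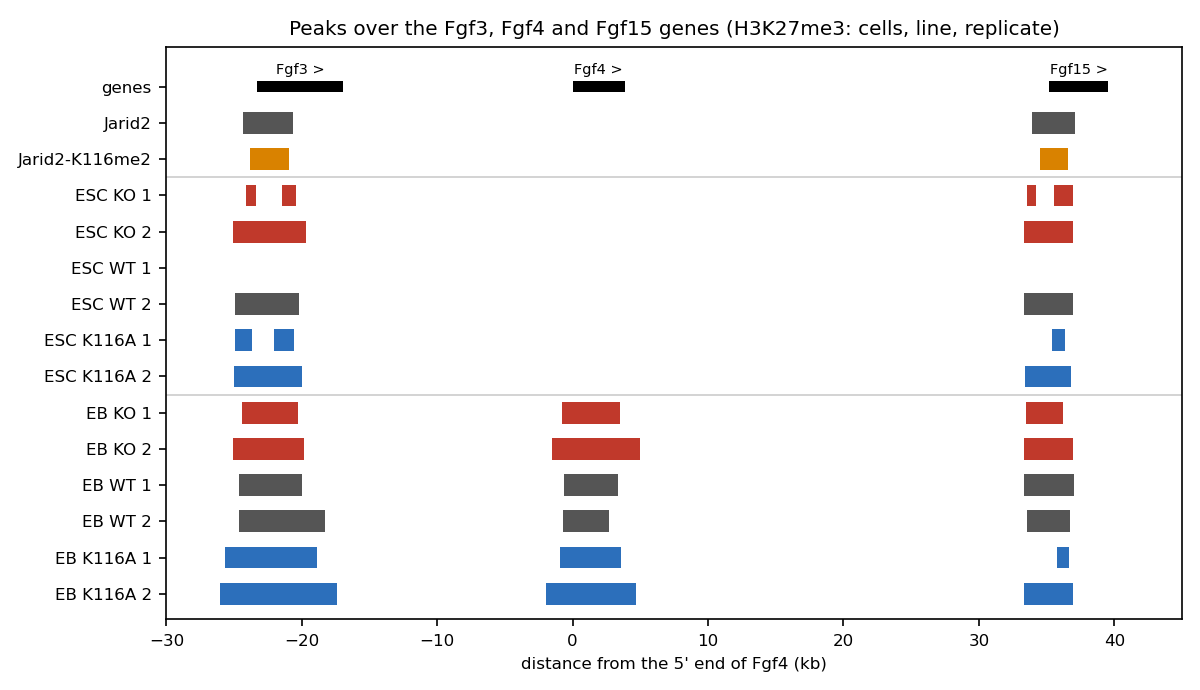
Peaks over the Fgf3, Fgf4 and Fgf15 genes, drawn to scale by distance in kb from the 5′ end of Fgf4: genes (black, arrowheads show the strand), Jarid2 and Jarid2-K116me2 peaks of E14 ESC, and H3K27me3 peaks of the 12 libraries. Fgf3 and Fgf15 carry H3K27me3 in both ESC and EB, while Fgf4, 23303 bp from the 5′ end of Fgf3, carries it in the 6 EB libraries only.

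Fgf5 had H3K27me3 in ESC and none in EB. The ESC values were 0 and 3.73 kb in KO, 0 and 2.67 kb in WT and 2.01 and 5.0 kb in K116A, and all 6 EB values were 0. The 2 ESC libraries at 0 overlap with the EB libraries. EB minus ESC was -1.87 ± 1.4 kb in KO, -1.34 ± 1.4 kb in WT and -3.51 ± 1.4 kb in K116A (adjusted p = 0.363, 1 and 0.276, limma), so no change passed the test, although its E14 Jarid2 score was at 3100. With quantile normalization the K116A difference passed, at -4.06 kb (adjusted p = 0.00577, limma). Fgfr1 showed the same pattern at a lower level, with 2.13, 1.43 and 1.58 kb in replicate 2 of ESC KO, WT and K116A and 0 in the 9 other libraries.

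Fgfr2 carried wide H3K27me3 in EB of the K116A line and little in EB of the others. In ESC its window held 5.01 and 6.39 kb in KO, 0 and 5.37 kb in WT and 5.23 and 6.22 kb in K116A. In EB it held 0.34 and 0 kb in KO and 0 and 1.72 kb in WT, but 6.70 and 10.0 kb in K116A. The EB K116A libraries lie above all others in EB. The difference of 7.49 ± 1.86 kb between EB K116A and EB WT had an unadjusted p of 0.00331 and an adjusted p of 0.121 (limma) and did not pass. EB minus ESC was -5.53 ± 1.86 kb in KO (adjusted p = 0.0631, limma), which passed without ESC WT replicate 1 (adjusted p = 0.0251) or replicate 2 (adjusted p = 0.0255). These values use the 5′ end of the gene without 1 annotated transcript that reaches far beyond all others and gives the gene a span of 3.01 Mb. Quantile normalization gave 6.21 kb between EB K116A and EB WT (adjusted p = 0.0378, limma) and -6.24 kb for EB minus ESC in KO (adjusted p = 0.0125, limma), so that both passed.

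**Figure D4:**
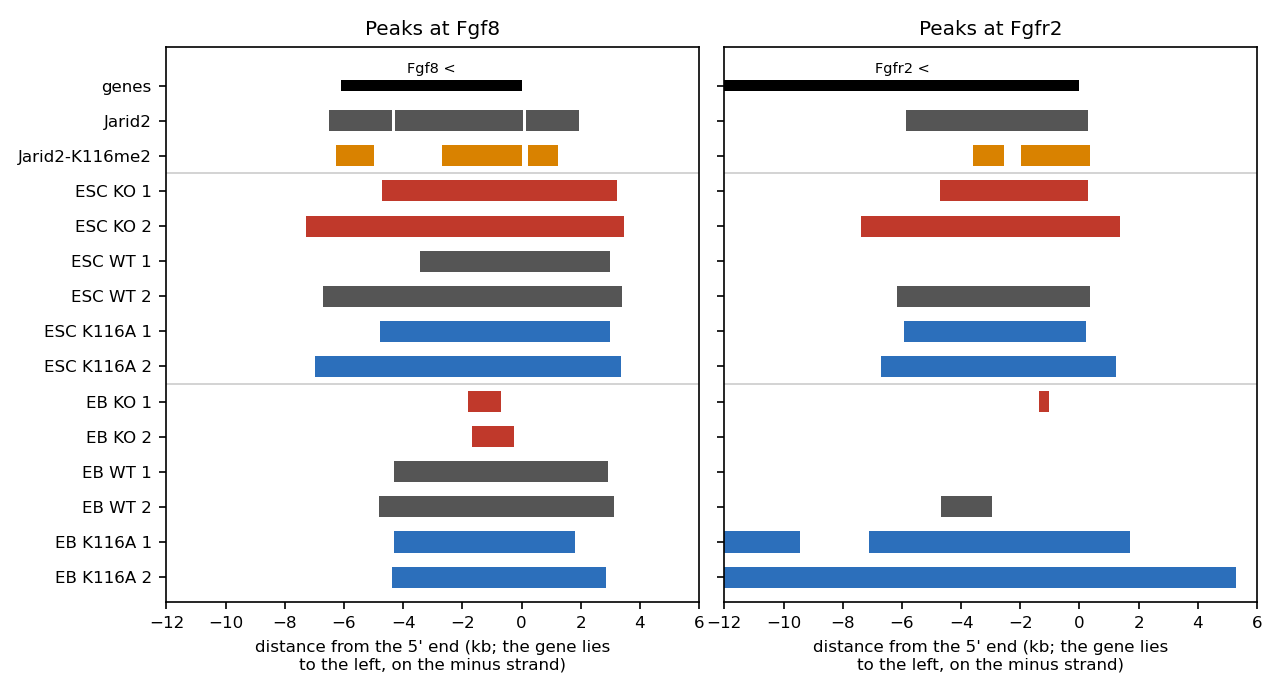
Peaks at Fgf8 (left) and Fgfr2 (right), drawn to scale by distance in kb from the 5′ end, with the gene to the left on the minus strand: Jarid2 and Jarid2-K116me2 peaks of E14 ESC and H3K27me3 peaks of the 12 libraries. At Fgf8 the 2 EB KO libraries keep a short peak of 1.12 and 1.41 kb, and at Fgfr2 the 2 EB K116A libraries carry wide peaks that fill 6.70 and 10.0 kb of the window.

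A few members without Jarid2 in E14 cells had H3K27me3 in EB of the KO line. Fgf17, a ligand of the Fgf8 group, had 1.65 and 2.02 kb in EB KO, 0 and 1.71 kb in EB K116A, and 0 in the 8 other libraries, so that it would not have passed the filter without the EB KO libraries, in which it is high. EB KO exceeded ESC KO by 1.84 ± 0.47 kb (adjusted p = 0.0217, limma) and EB WT by the same amount (adjusted p = 0.027, limma), and both calls passed with no filter (adjusted p = 0.0201 and 0.0241). Fgf22, a ligand of synapses, had 2.32 and 4.05 kb in EB KO and 0 in the other 4 EB libraries, with 1.10 and 1.55 kb in replicate 2 of ESC KO and ESC WT. These peaks all lie before the gene, and none reaches its 5′ end at 79217821. Those of EB KO end at 79217089 and 79217320. EB KO exceeded ESC KO by 2.64 ± 0.70 kb (adjusted p = 0.0251, limma) and EB WT by 3.19 ± 0.70 kb (adjusted p = 0.0141, limma). The KO change differed from the WT change by 1.84 ± 0.67 kb for Fgf17 (adjusted p = 0.174, limma) and 3.41 ± 0.99 kb for Fgf22 (adjusted p = 0.0856, limma), so neither passed. That of Fgf17 passed with peaks of a score of at least 50 (adjusted p = 0.00172) and without either EB K116A library (adjusted p = 0.0161 and 0.00935). That of Fgf22 passed with quantile normalization (2.52 kb, adjusted p = 0.0298) and without EB KO replicate 1 (adjusted p = 0.0201).

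Without EB KO replicate 2, the library with the most peaks, neither Fgf17 nor Fgf22 passed in either comparison, with adjusted p values of 0.139 and 0.181 for Fgf17 and 0.172 and 0.0941 for Fgf22. Fgf17 also lost its call against ESC KO without either ESC KO library (adjusted p = 0.0659 and 0.0638) and its call against EB WT without either EB WT library (adjusted p = 0.122 for each), without either ESC WT library (0.0533 and 0.0547) and without ESC K116A replicate 2 (0.0514). Fgf22 lost its call against ESC KO without ESC KO replicate 1 (adjusted p = 0.108) and against EB WT without either EB WT library (0.0799 and 0.0792). Quantile normalization between libraries also removed both calls of Fgf17 (adjusted p = 0.257 and 0.317). A window of 2.5 kb on each side removed both calls of Fgf22 (adjusted p = 0.141 against ESC KO and 0.0512 against EB WT), and log2 of the mean score removed that against ESC KO (0.117).

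The window at the 5′ end of Fgf20 had 2.91 and 2.88 kb in EB KO, 0.34 kb in ESC WT replicate 2 and 0 in the 9 other libraries. EB KO exceeded both ESC KO and EB WT by 2.89 ± 0.25 kb (adjusted p = 0.000183 and 0.000191, limma), and the KO change exceeded the WT change by 3.06 ± 0.35 kb (adjusted p = 0.00268, limma). Start sites of another gene, Efha2, lie 280 and 873 bp from that 5′ end, whereas the Jarid2 peak of Fgf20 lies 21378 bp away. Fgf20 passed the filter only through the EB KO libraries, in which it is high, and the replicate with 0.34 kb, and its calls also passed with no filter (adjusted p = 0.000155, 0.00017 and 0.0163). At the occupied start site the window was already full or nearly full in both EB KO and both EB WT libraries, so a gain of KO over WT could not show there. The setting that takes the start site with the most H3K27me3 in each library meets the same limit between EB KO and EB WT. It gave no call there (adjusted p = 1) and -1.07 kb for the difference between changes (adjusted p = 0.982, limma). EB KO against ESC KO was not called under it either (adjusted p = 0.481, limma). There the window at the occupied start site held 3.77 and 9.64 kb in ESC KO, so replicate 1 left room for a gain. Over the gene with 5 kb on each side H3K27me3 covered 27.1 and 30.8 kb in EB KO, 11.9 and 13.4 kb in EB WT and 3.77 and 11.0 kb in ESC KO. With that measure, on the scale of the fit, EB KO passed against ESC KO (adjusted p = 0.0125) and EB WT (adjusted p = 0.0476), and the difference between changes did not (adjusted p = 0.285). In EB KO replicate 2 a single peak of 30769 bp (chr8:41360795-41391563) ran over the occupied start site and into the window at the 5′ end. The peaks of both EB KO replicates stopped short of the 5′ end itself, at 41393685, and of the Efha2 start sites at 41392812 and 41393405. They ended at 41391591 in replicate 1 and at 41391563 in replicate 2. Whether the calls concern Fgf20 or Efha2 cannot be told apart.

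**Figure D5:**
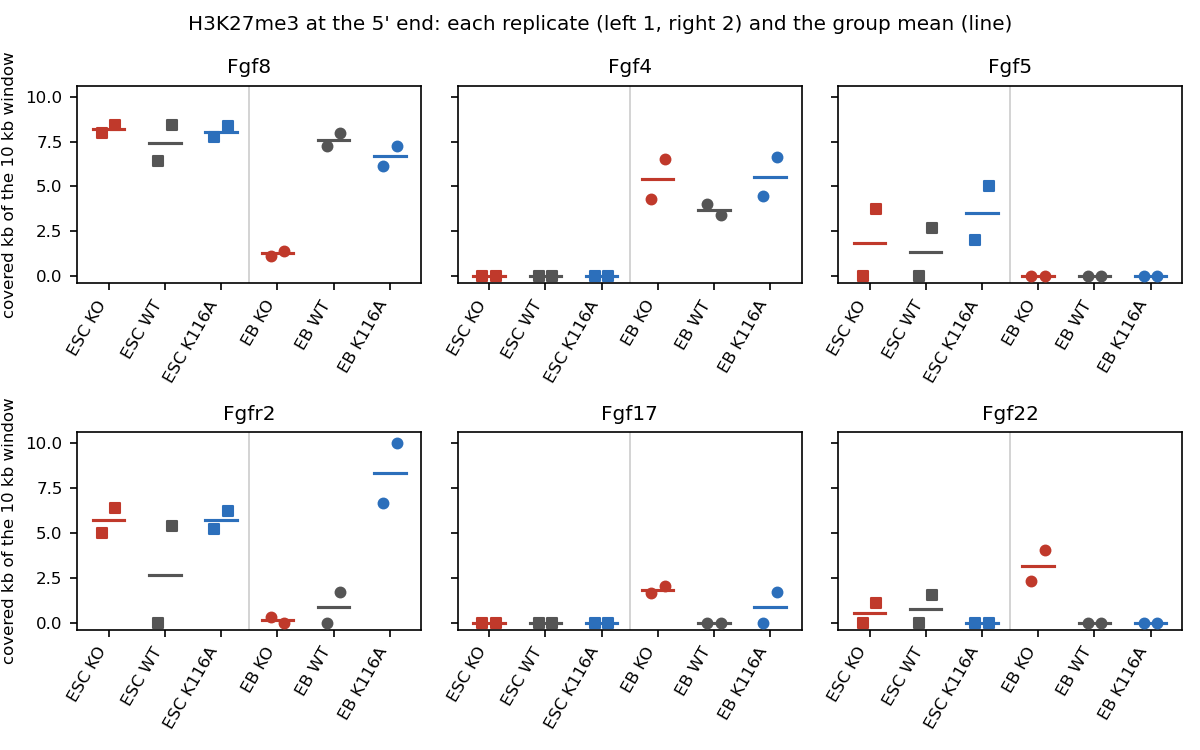
Length in kb covered by H3K27me3 peaks in the 10 kb window around the 5′ end of 6 members in the 6 groups, with each of the 2 replicates as a point (squares for ESC, circles for EB, replicate 1 on the left) and the group mean as a line. Fgf8 is low in EB KO alone, Fgf4 is at 0 in ESC and between 3.39 and 6.62 kb in EB, Fgfr2 is high in EB K116A, and Fgf22 is above 0 in both replicates of EB KO only.

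The members called in each comparison were few beside the counts over all genes. Between EB and ESC, 5 of the 19 members were called in KO, with 4 higher and Fgf8 lower, beside 24.3% of the 6741 genes. In K116A 1 member (Fgf4) was called beside 2.55%, and in WT none beside 0% (0 of 6741 genes by limma, with 386 at an unadjusted p under 0.05). Between the lines in EB, KO against WT called 4 members, with 3 higher and Fgf8 lower, beside 18.6% of genes, and K116A against WT called none beside 1.31%. In ESC no member was called in KO against WT, beside 0% (0 of 6741 genes, with 18 at an unadjusted p under 0.05), nor in K116A against WT, beside 0.0148%. The changes from ESC to EB differed between KO and WT for Fgf8 and Fgf20, beside 7.14% of genes, and between K116A and WT for no member, beside 0.0593%. The shares of members called were thus close to those of all genes.

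The direction of Fgf8 ran against that of most genes called. Of the 1636 genes that differed between EB and ESC of KO, 1624 were higher and 12 lower, and of the 1253 that differed between KO and WT in EB, 1237 were higher and 16 lower. Over all genes the median difference was 1.05 kb in the former comparison and 0.89 kb in the latter, and EB KO replicate 2 had the most peaks and the most covered sequence of the 12 libraries. Quantile normalization, which removes these differences between libraries, gave 799 higher and 370 lower genes in the former and 424 higher and 75 lower in the latter, with medians over all genes of -0.01 and -0.06 kb. It also moved the split in K116A, from 169 higher and 3 lower to 247 and 226 for EB against ESC, and from 74 and 14 to 137 and 66 for K116A against WT in EB. For KO against WT changes it gave 127 higher and 18 lower in place of 475 and 6. Fgf8 stayed lower in EB KO under this scaling, and Fgf4 stayed higher in EB of KO and K116A.

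Among the 39 other pathway genes, 19 passed the filter, and none of them was called lower in any comparison. No comparison called more than 16 of all 6741 genes lower, so this is not particular to the pathway. Of all genes, 24.3% were called for EB against ESC in KO and 2.55% for the same in K116A. For K116A against WT in EB the share was 1.31%. The adaptor Grb2 had 2.70 and 2.76 kb in EB KO and 0 in the 10 other libraries, so it passed the filter through these libraries alone, and its differences are given without a test. EB KO exceeded ESC KO and EB WT by 2.73 kb, by 0.33 kb with 2.5 kb on each side of the 5′ end, and by 1.26 and 1.35 kb with quantile normalization. The cyclin gene Ccnd1 was higher in EB KO than in ESC KO by 2.15 kb (adjusted p = 0.0117, limma), a call that was lost without EB KO replicate 2 (adjusted p = 0.097) and with quantile normalization (adjusted p = 0.278). The phosphatase gene Dusp9 had 5.13 and 5.35 kb in EB K116A, 2.02 and 1.64 kb in EB KO and 0 in both EB WT libraries. In EB K116A it was higher than in ESC K116A by 4.71 kb (adjusted p = 0.00897, limma) and than in EB WT by 5.24 kb (adjusted p = 0.00755, limma). The former call was lost without EB K116A replicate 2 or either ESC K116A library (adjusted p = 0.05, 0.0906 and 0.0725) and the latter without either EB WT library (adjusted p = 0.0785 and 0.0956). Log2 of the mean score plus 1 removed both (adjusted p = 0.19 and 0.0999). These 3 genes have no Jarid2 peak and were named after their values were seen.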

How the data were processed

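The authors sequenced ChIP DNA as single reads, mapped them to mm9 with Bowtie2 2.1.0, and called peaks per sample against input with MACS 1.4.2 (Jarid2) or MACS2 2.0.10 in broad mode (H3K27me3). The deposited files used here give the position and score of each peak and no read count, fold enrichment or q-value. Inputs were not analysed here, and some results on a pathway gene and a promoter are not reported here. Member genes and pathway lists were chosen with earlier results of these data known. All members were to be named, with values where a peak or a call was found, and pathway genes where they had a peak. Peaks within 5 kb of a gene (minimum overlap 1 bp) were assigned on GENCODE NCBIM37, leaving out transcripts that reach over 500 kb beyond all others of a gene. The planned measure, fold enrichment, could not be computed from position and score, and covered kb in 10 kb took its place. Groups were compared with limma 3.58.1 (trend, 12 libraries, 6 groups, R 4.3.3), and intervals handled with Python 3.11.15, numpy 2.4.6 and pandas 2.3.3. The interval functions and the main limma fit were tested on simulated data, the latter without the bounds that the window sets on covered length. Read numbers are not in the peak lists and were not used here. The p-values rest on the spread between replicates within all 6 groups, pooled for each gene and moderated across genes. Alternatives were other windows, scalings, filters, scores, start sites, a replicate block and leaving out each library.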

Additional observations from a re-analysis of the deposited data

Results flagged for a closer look

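Fgf8 and Fgf20 drew attention because their change from ESC to EB differed between the KO and WT lines by a test of the difference itself. For Fgf8 the difference was -7.14 kb (adjusted p = 0.0395, limma), with both EB KO libraries lower than all other libraries. For Fgf20 it was 3.06 kb (adjusted p = 0.00268, limma), in a window that also holds start sites of Efha2, which the EB KO peaks did not reach. That window passed the filter mainly through the EB KO libraries. With 2 libraries in a group, no group was large enough for a test of outlying samples.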

How the results depend on the processing

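The counts of members with Jarid2 (19 or 20, and 17 with a score of at least 200), Jarid2-K116me2 (17) and both (16 or 17) stayed within 1.5 times of the reported ones under every distance, start site, score and overlap tried. Leaving out 1 replicate, members with H3K27me3 numbered 9 to 16 in ESC KO, 4 to 17 in ESC WT, 11 to 14 in ESC K116A, 15 to 17 in EB KO, 11 to 12 in EB WT and 13 to 15 in EB K116A. Leaving out 1 library, members called numbered 0 to 1 for EB against ESC in WT, 2 to 6 in KO and 0 to 2 in K116A, 1 to 4 for KO against WT and 0 to 1 for K116A against WT in EB, 0 to 1 for each of these in ESC, and 1 to 3 and 0 to 0 for the differences between changes in KO and in K116A. Without ESC WT replicate 2, Fgf9 was called for EB against ESC in WT, for KO and for K116A against WT in ESC, and for the difference between the KO and WT changes, but not between the K116A and WT changes. The lone sample of a group was then assumed to vary like the others.

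For EB against ESC in K116A, 0 members were called with no filter, and 2 with quantile normalization (Fgf4, Fgf5), with the replicate block (Fgf4, Fgf16) and with start sites as annotated (Fgf4, Fgfr2). For K116A against WT in EB, 2 were called with quantile normalization (Fgfr2, 6.21 kb, and Fgf13, 3.10 kb), and 1 with the replicate block (Fgfr2, adjusted p = 0.0352) and with start sites as annotated (Fgfr2). For the difference between the KO and WT changes, 1 was called with the best of all start sites (Fgf8), with log2 of the mean score plus 1 (Fgf20) and with no filter (Fgf20), and 0 with the gene and 5 kb on each side. Fgf20 reversed to -1.07 kb there with the best of all start sites, where the window is full in several libraries, and Fgfr2 in EB against ESC of KO to 0.53 kb with start sites as annotated. For Fgfr2 the annotated start is that of the outlying transcript, so that window does not hold the 5′ end used and its values do not bear on it.

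The replicate block used the shared replicate numbers, which the labels do not tie to a batch. The differences between replicates correlated between groups at -0.01 to 0.70, with the high values among ESC groups, so the numbers do not pair all samples. The block also called Fgf16 in EB against ESC of K116A (adjusted p = 0.0298), and Fgf18 (adjusted p = 0.0158) and Fgfr2 (adjusted p = 0.0153) in EB against ESC of KO and Fgf22 in the difference between KO and WT changes (adjusted p = 0.038). A limit on q of H3K27me3 peaks was not run, since the files hold no q, and a score of at least 50 took its place. This setting, the log2 score, the best start site and the annotated start sites were chosen after seeing the data.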
